A study of Mus musculus with 6 samples.

Results

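Branched-chain amino acid catabolism is described here by 10 genes: Bcat2, Bckdha, Bckdhb, Dbt, Bckdk, Ppm1k, Ivd, Mccc1, Mccc2 and Acad8. They were listed by name among the 35122 genes of the count table, and the pathway was picked because Bckdhb was higher in the aPU.1KO libraries of these same data. Their differences between aPU.1KO and control are therefore a description of the values that chose them. How many of the 10 met each call rule used over all genes is given once, as a count beside the share of all genes, and supports nothing. All 10 were found in the table and all 10 were among the 13925 genes with enough counts to be tested.

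The samples were adipocytes from epididymal fat of male mice, labelled C57BL/6 and kept on standard chow, 3 control mice (PU.1 fl/fl) and 3 aPU.1KO mice (AdipoqCre_PU.1 fl/fl), with 1 RNA library per mouse. The study's methods state this background for the floxed line and not for the Cre line it was crossed with. Both groups carried loxP sites around exon 5 of Spi1, the gene of the ETS transcription factor PU.1, and only aPU.1KO mice carried Cre recombinase, driven by the adiponectin promoter and enhancer and thus by adipocytes. Every mouse is labelled as 10 to 11 months old, while the study's text describes these animals as older than 1 year. Adipocytes were the floating layer of collagenase-digested fat, a preparation that can hold other cells attached to fat cells.

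Leucine, isoleucine and valine are broken down in mitochondria. A transaminase (BCAT2) turns them into branched-chain keto acids, and the branched-chain keto acid dehydrogenase complex (BCKDH), built of E1α, E1β, E2 and E3 subunits, commits the keto acids to oxidation. A kinase (BCKDK) switches the complex off by phosphorylating E1α and a phosphatase (PPM1K) switches it on again. Separate enzymes then carry the leucine, isoleucine and valine products to acetyl-CoA, acetoacetate and propionyl-CoA. White adipocytes express the whole route, and their branched-chain amino acid use increases as they differentiate.

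Total estimated counts were 69283842, 22770714 and 23392407 in the control mice and 20550252, 24310144 and 20939027 in the aPU.1KO mice, so that control mouse 1 was sequenced 2.85 times as deeply as the next library. Levels are given as CPM, the counts per 1000000 counts of the library total after TMM scaling. Spi1 was at 24.3, 6.35 and 26.7 CPM in the control mice and at 3.20, 1.22 and 4.17 CPM in the aPU.1KO mice (log2 fold change -2.75 ± 0.64 SE, edgeR quasi-likelihood adjusted p = 0.0788, DESeq2 adjusted p = 0.000115). This gene-level count includes exons outside the loxP sites, and macrophages also express Spi1. The summed level of 11 adipocyte markers ran from 46560 to 51040 CPM in control and from 56880 to 65610 CPM in aPU.1KO mice, with 9 of the 11 higher without overlap and Lep lower. The summed level of 12 macrophage markers was 1507, 492.6 and 1452 CPM in the control mice and between 258.7 and 339.7 CPM in the aPU.1KO mice, with 10 of the 12 lower without overlap and none at 0. Cd163 (log2 fold change 0.289 ± 0.635 SE) and Mertk (0.056 ± 0.172 SE) overlapped. Over all tested genes, 16.7% were higher and 15.5% lower without overlap. Progenitor and fibroblast markers ran from 1325 to 1737 CPM against 720.5 to 1041 CPM, and endothelial markers, at 448.9 to 655.8 against 269.7 to 592.2 CPM, overlapped. Hepatocyte markers were low throughout and lower in aPU.1KO mice (17.1 to 23.3 CPM against 38.1 to 62.8 CPM). In such bulk samples, fewer cells of a type and less RNA per cell cannot be told apart.

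Bcat2 encodes the mitochondrial transaminase that starts the pathway and lies at chr7:45570153-45589711 on the plus strand (GRCm38). It was at 121.0, 133.8 and 125.0 CPM in the control mice and at 187.6, 275.1 and 159.3 CPM in the aPU.1KO mice. All aPU.1KO mice were above all control mice, and aPU.1KO mouse 2 stood well above the other two. The means were 126.6 ± 6.54 and 207.3 ± 60.4 CPM (SD, n = 3 each), a log2 fold change of 0.71 ± 0.20 (SE), which was 0.45 without aPU.1KO mouse 2. Of the 10 genes Bcat2 had the widest spread among aPU.1KO mice, with a coefficient of variation of 29.1%. An antisense transcript on the other strand, 0610005C13Rik, shares 622 bases of Bcat2 exons, and whether the counting separated strands is not given in the sources used here.

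Bckdhb encodes E1β, the subunit that pairs with E1α to decarboxylate the keto acids. The gene spans chr9:83925145-84124240 on the plus strand. The 300 bases around its first start (RefSeq window, chr9:83924887-83925186, plus strand, GRCm38.p6) are shown because Bckdhb had the largest difference of the 10 genes, beside those of its partner Bckdha (chr7:25658712-25659011, minus strand) and of Mccc1 (chr3:36000629-36000928, minus strand), which had the smallest. Capitals mark GAGGAA, the core of the PU box that PU.1 binds, on either strand (TTCCTC when read on the other).
Bckdhb: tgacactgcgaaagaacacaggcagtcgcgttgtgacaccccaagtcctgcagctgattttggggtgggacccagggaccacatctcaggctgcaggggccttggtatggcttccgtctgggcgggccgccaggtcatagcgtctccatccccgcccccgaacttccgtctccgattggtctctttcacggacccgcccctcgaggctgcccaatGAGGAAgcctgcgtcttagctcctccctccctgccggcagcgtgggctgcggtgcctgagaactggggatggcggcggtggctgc
Bckdha: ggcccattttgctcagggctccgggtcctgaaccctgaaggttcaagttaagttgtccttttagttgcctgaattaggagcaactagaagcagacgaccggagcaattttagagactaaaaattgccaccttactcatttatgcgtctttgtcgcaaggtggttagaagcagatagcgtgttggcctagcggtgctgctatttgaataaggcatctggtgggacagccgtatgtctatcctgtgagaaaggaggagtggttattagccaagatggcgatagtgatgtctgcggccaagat
Mccc1: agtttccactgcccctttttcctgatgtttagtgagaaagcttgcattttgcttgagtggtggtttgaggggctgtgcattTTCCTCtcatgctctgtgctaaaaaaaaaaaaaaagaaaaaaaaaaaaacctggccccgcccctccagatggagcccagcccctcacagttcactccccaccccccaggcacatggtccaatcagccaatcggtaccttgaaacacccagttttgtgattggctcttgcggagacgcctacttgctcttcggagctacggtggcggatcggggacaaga

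GAGGAA began 35 bases upstream of the annotated start of Bckdhb, and it began 169 bases upstream of the start of Mccc1, there on the other strand. It did not occur in the Bckdha window. Windows of 250 bases before to 50 after a start were at hand for 9 of the 10 genes, 11 windows in all since Bcat2 and Bckdhb have more than 1 annotated start, and GAGGAA was in 2 of these 11 windows. Of all 32851 such windows in the mouse table, 28.3% hold it, so a match by itself is common. The Bckdhb window was rich in G and C (65.0%, with 20 CpG dinucleotides), against a median of 52.7% and 7 CpG over all windows. The window of its second annotated start had 37.3% and 2 CpG and held no GAGGAA. Of the 11 windows 10 had more CpG than the median. CCAAT or its reverse ATTGG was in windows of 7 of the 9 genes (all but Bcat2 and Bckdha) and in 37.4% of all windows. GGGCGG, the GC box, was in windows of Bckdhb, Ppm1k, Mccc1 and Acad8 and in 35.7% of all windows, read on both strands. The longer ETS site CCGGAAGT (3.89% of all windows), the NRF-1 core CGCATGCG (1.87%) and the nuclear receptor site AAGGTCA (4.72%) were in none of the 11 windows, and TATAAA (13.6%) was in that of Bckdk. A match is a description of letters and not a measured binding site.

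Bckdhb was at 61.5, 63.7 and 64.4 CPM in the control mice and at 155.1, 146.7 and 124.5 CPM in the aPU.1KO mice. The control mice lay within 3 CPM of each other, and the lowest aPU.1KO mouse was far above the highest control mouse. The means were 63.2 ± 1.52 and 142.1 ± 15.8 CPM, a 2.25-fold ratio of means and a log2 fold change of 1.17 ± 0.10 (SE). Unlike 8 of the other genes, it was highest in aPU.1KO mouse 1 and not in mouse 2. These values rest on 1454 to 4467 counts per control library and 2629 to 3246 per aPU.1KO library.

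Bckdha (chr7:25629946-25658981, minus strand) encodes E1α, the subunit that is phosphorylated. Its levels were 114.9, 133.2 and 120.5 CPM in the control mice and 163.8, 199.5 and 145.1 CPM in the aPU.1KO mice, with a log2 fold change of 0.46 ± 0.13. The groups did not overlap, and aPU.1KO mouse 2 was again highest. Of the 1899 bases of Bckdha exons, 1171 are shared with B3gnt8 on the other strand. B3gnt8 was counted at 1.53 to 5.70 CPM in all libraries, so little of the summed signal was assigned to it.

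Dbt (chr3:116513070-116549981, plus strand) encodes E2, the core of the complex that passes the acyl group to coenzyme A. It was at 104.1, 121.0 and 95.3 CPM in the control mice and at 143.6, 149.2 and 128.2 CPM in the aPU.1KO mice (log2 fold change 0.39 ± 0.11). The groups did not overlap, although control mouse 2 came within 8 CPM of the lowest aPU.1KO mouse. Dbt was the only one of the 10 genes that varied more among control mice (coefficient of variation 12.2%) than among aPU.1KO mice (7.75%).

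**Figure D1:**
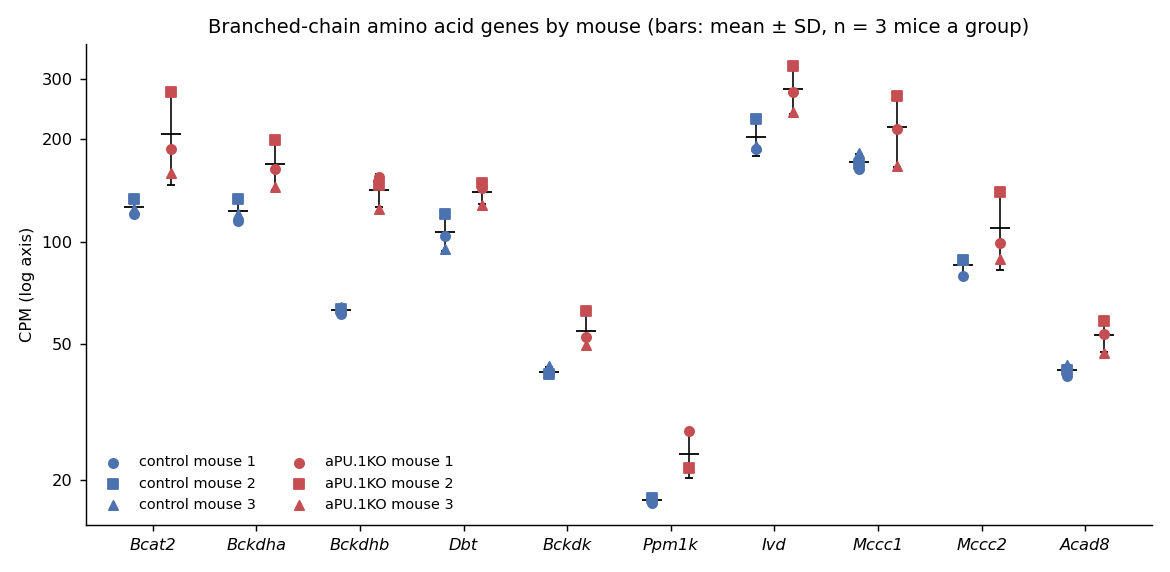
CPM on a log axis for the 10 genes in every mouse, with control mice in blue, aPU.1KO mice in red, a marker shape per mouse number and bars for the mean ± SD (n = 3 mice a group). Bckdhb shows the widest gap between groups (63.2 against 142.1 CPM on average), aPU.1KO mouse 3 (triangle) is the lowest aPU.1KO mouse for 9 of the 10 genes, and only Mccc1 overlaps between groups, where 16.7% of all tested genes are higher without overlap.

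Subunits of 1 complex can be compared within a library, where sequencing depth and scaling cancel. The ratio of Bckdhb to Bckdha counts was 0.535, 0.478 and 0.535 in the control mice and 0.947, 0.735 and 0.858 in the aPU.1KO mice (means 0.516 ± 0.033 and 0.847 ± 0.106). The ratio of Bckdhb to Dbt was 0.591, 0.526 and 0.677 against 1.08, 0.983 and 0.971. Neither ratio overlapped between groups, and the aPU.1KO means were 1.64 and 1.69 times the control means. The ratio of Bckdha to Dbt overlapped between groups (1.16 ± 0.094 and 1.20 ± 0.116). In the pyruvate dehydrogenase complex, which has the same build, the ratio of E1β (Pdhb) to E1α (Pdha1) was 0.584 ± 0.061 in control and 0.569 ± 0.013 in aPU.1KO mice and overlapped. Outside a complex, the ratio of Bcat2 to Bckdha was also separated (1.03 ± 0.025 and 1.21 ± 0.150). Those of Ivd to Mccc1 and of Bcat2 to Bcat1 overlapped. These ratios use the measure that chose Bckdhb and are likewise descriptions. RNA ratios do not give protein amounts, and counts are not per length.

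**Figure D2:**
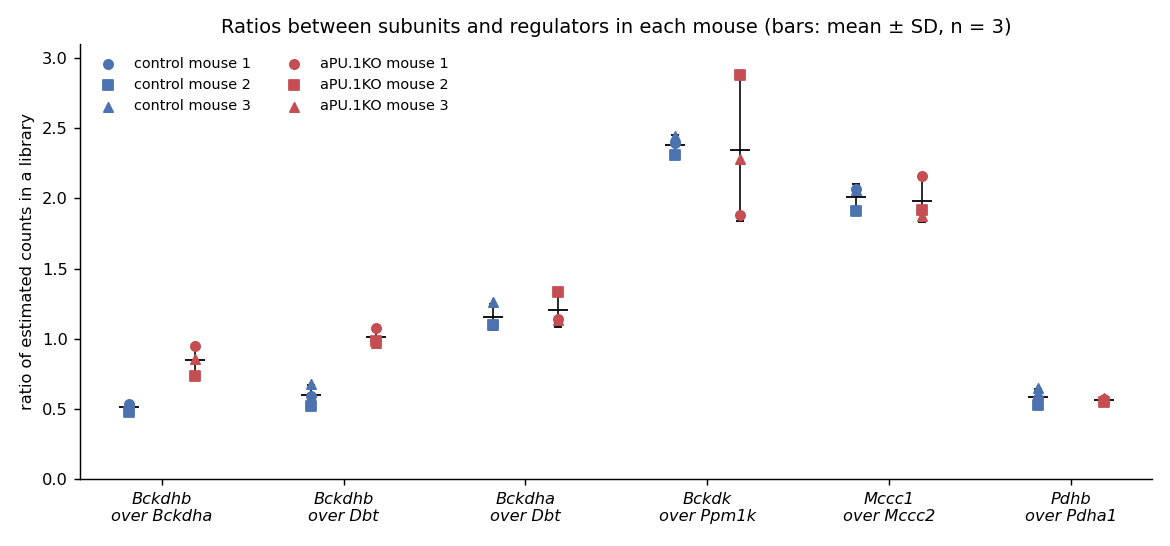
Ratios of estimated counts between gene pairs within each library, on a linear axis from 0, with control mice in blue, aPU.1KO mice in red and bars for the mean ± SD (n = 3). Bckdhb over Bckdha and Bckdhb over Dbt are separated between groups (0.516 against 0.847 for the first on average), whereas Bckdha over Dbt, Bckdk over Ppm1k, Mccc1 over Mccc2 and Pdhb over Pdha1 overlap.

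Bckdk (chr7:127904082-127910221, plus strand), the kinase that inhibits the complex, was at 40.9, 40.8 and 43.0 CPM in the control mice and at 52.5, 62.5 and 49.7 CPM in the aPU.1KO mice. Ppm1k (chr6:57506502-57535468, minus strand), the phosphatase that opposes it, was at 17.1, 17.7 and 17.6 CPM and at 27.9, 21.7 and 21.8 CPM. The inhibitor and the activator were thus both higher in all aPU.1KO mice, with log2 fold changes of 0.40 ± 0.10 and 0.45 ± 0.12. The mice differed in which of them led: aPU.1KO mouse 1 had the highest Ppm1k and aPU.1KO mouse 2 the highest Bckdk. The ratio of Bckdk to Ppm1k was accordingly 1.88, 2.88 and 2.28 in the aPU.1KO mice, on both sides of the control range of 2.31 to 2.44.

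Ivd encodes isovaleryl-CoA dehydrogenase, the first enzyme of the leucine branch after the complex (chr2:118861954-118882909, plus strand). It had 187.0, 229.9 and 190.8 CPM in the control mice and 275.9, 328.6 and 240.1 CPM in the aPU.1KO mice. The groups did not overlap, but control mouse 2 was close to aPU.1KO mouse 3, and the log2 fold change was 0.48 ± 0.14.

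Mccc1 (chr3:35959312-36000678, minus strand) and Mccc2 (chr13:99948530-100015639, minus strand) encode the α and β subunits of methylcrotonyl-CoA carboxylase, the biotin enzyme of the leucine branch. Mccc1 was at 163.8, 169.5 and 181.9 CPM in the control mice and at 214.6, 268.1 and 167.3 CPM in the aPU.1KO mice, with aPU.1KO mouse 3 inside the control range. Mccc2 was at 79.3, 88.7 and 88.2 CPM and at 99.4, 139.9 and 89.2 CPM, and its groups were separated by less than 1 CPM. Their log2 fold changes were 0.34 ± 0.17 and 0.36 ± 0.17, and 0.15 and 0.14 without aPU.1KO mouse 2. Their ratio was 2.01 ± 0.088 in control and 1.98 ± 0.153 in aPU.1KO mice and overlapped. Mccc1 shares 321 exon bases with the pseudogene B230207O21Rik, which was at 0 in all libraries.

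Acad8 encodes isobutyryl-CoA dehydrogenase of the valine branch (chr9:26974135-26999566, minus strand). It was at 40.4, 41.9 and 43.4 CPM in the control mice and at 53.6, 58.5 and 47.3 CPM in the aPU.1KO mice. The groups did not overlap and the log2 fold change was 0.34 ± 0.10.

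Across the 10 genes the log2 fold changes ran from 0.34 to 1.17 with a median of 0.42, and all 10 were above 0. Without Bckdhb the median was 0.40. Over all 13925 genes the median was 0.01 and 52.0% were above 0. Groups did not overlap for 9 of the 10 genes, all higher, where 16.7% of all genes were higher without overlap and 15.5% lower. By the edgeR call (adjusted p under 0.05), which 8 genes passed upward (0.0575% of those tested) and 25 downward (0.18%), 1 of the 10 was called, Bckdhb. When control mouse 2 was left out, 2 of the 10 were called, Bckdhb and Dbt, in a fit of 14306 genes with 1.41% called higher and 6.93% called lower overall. At an unadjusted p under 0.05, reached upward by 11.9% and downward by 13.7% of genes, 8 of the 10 were counted. By DESeq2 (4.69% of genes higher and 8.73% lower) 8 of the 10 were called, all but Mccc1 and Mccc2. Since the pathway was chosen on this contrast, nothing is read from these counts. The edgeR call of Bckdhb did not survive the removal of control mouse 1, control mouse 3 or either of aPU.1KO mice 1 and 2, with its log2 fold change between 1.09 and 1.26 whichever mouse was left out.

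The mice kept much the same order from gene to gene. Among aPU.1KO mice, mouse 2 was highest for 8 of the 10 genes and mouse 3 lowest for 9. Among control mice, mouse 2 was highest for 6 and mouse 1 lowest for 8. Control mouse 2 had the lowest macrophage marker sum of its group and aPU.1KO mouse 2 the lowest of all, and each had the highest adipocyte marker sum of its group (51040 and 65610 CPM). All 10 genes were measured in the same libraries and share their scaling.

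Because adipocyte markers took a larger share of the aPU.1KO libraries, the genes were also counted per 1000000 counts of the 11 adipocyte markers. Lpl and Fabp4 weigh most in this sum, at 16240 and 9807 of 46560 CPM in control mouse 1. In aPU.1KO mouse 2 they were at 22520 and 14290 of 65610 CPM. The sum also holds Lep (log2 fold change -0.77) and Cfd (1.71). On this scale Bckdhb was at 1321, 1247 and 1335 in the control mice and at 2561, 2236 and 2189 in the aPU.1KO mice, a log2 difference of 0.84 with no overlap. Bcat2 was at 2599, 2621 and 2590 against 3098, 4192 and 2800, also with no overlap (0.37). The other 8 genes overlapped between groups, with log2 differences from -0.01 for Mccc1 to 0.14 for Ivd. Over all tested genes, 1.77% were higher without overlap on this scale and 46.7% lower, and since the pathway was chosen on this contrast nothing is read from the 2 of 10. This scaling moves all genes down alike, to a median of -0.31, and the median of the 10 genes to 0.10. How far cell composition contributes to the differences was not tested.

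**Figure D3:**
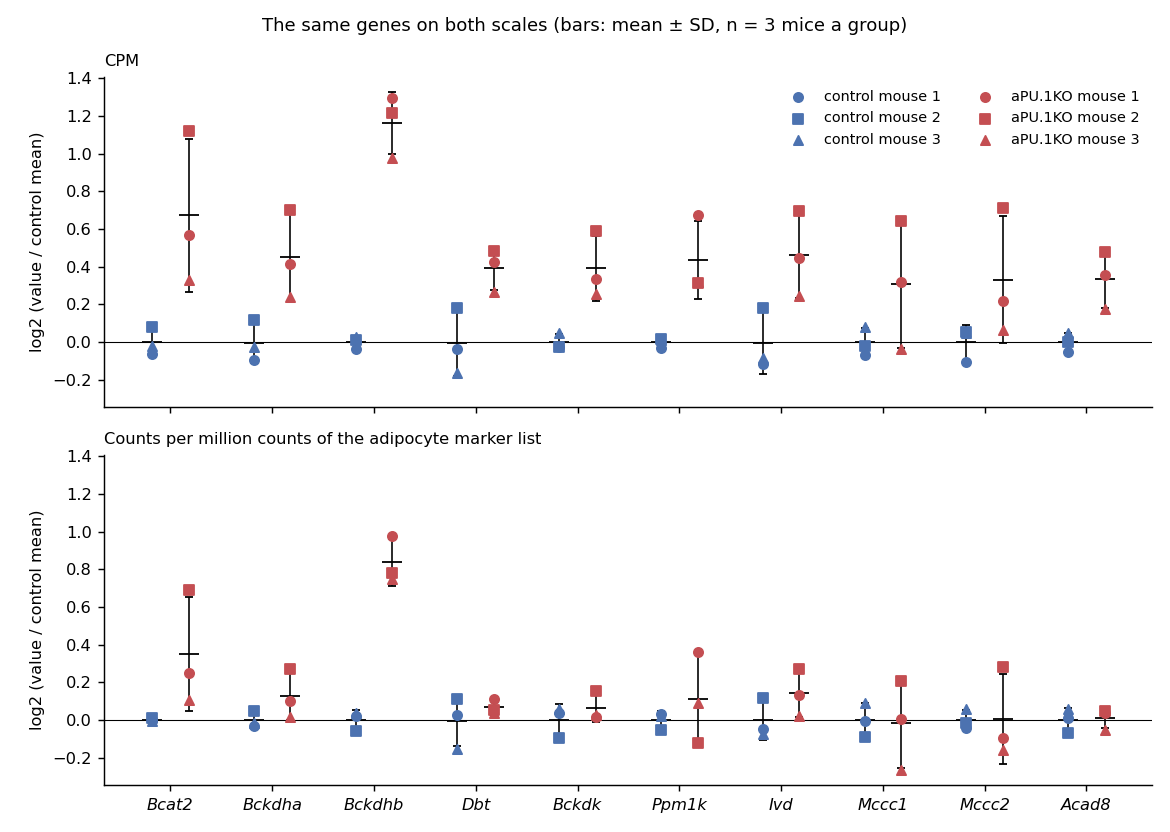
Log2 of each mouse's value over the control mean for the 10 genes, as CPM in the upper panel and per 1000000 counts of the adipocyte marker list in the lower one, with control mice in blue, aPU.1KO mice in red and bars for the mean ± SD (n = 3). All genes but Mccc1 are separated between groups above, where 16.7% of all tested genes are higher without overlap, and in the lower panel Bckdhb (log2 difference 0.84) and Bcat2 (0.37) are, where 1.77% of all tested genes are higher without overlap.

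Levels of different genes can be compared only per length, and CPM was divided by the mean length of each gene's protein-coding transcripts in kilobases. In control mice Bckdha was highest with 92.7 ± 7.08 CPM per kb, above 93.5% of tested genes, followed by Bcat2 with 83.7 ± 4.33 and Mccc1 with 69.9 ± 3.77. Bckdha and Bcat2 overlapped. Dbt (57.0 ± 6.98), Ivd (55.3 ± 6.47) and Mccc2 (52.3 ± 3.23) came next, with Ivd overlapping both of the others, and then Bckdhb with 43.6 ± 1.05 CPM per kb, below Bckdha and Dbt. Bckdk (27.1 ± 0.81), Acad8 (14.6 ± 0.52) and Ppm1k (5.63 ± 0.10) were lowest, 16.5-fold between Bckdha and Ppm1k. In aPU.1KO mice Bckdhb took rank 3 of the 10 with 98.1 ± 10.9 CPM per kb, behind Bcat2 (137.1 ± 39.9) and Bckdha (127.9 ± 20.9). The order depends on the length used: with the union of all exons Bckdhb had rank 3, above Dbt, and Mccc1 rank 7 in control mice, and with the longest coding transcript Bckdhb was again above Dbt and Mccc1 came first.

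The rest of the pathway was described by 23 further genes, listed by their role in the pathway. Of these 23, 19 had a log2 fold change above 0 and 4 below 0, and the median was 0.39. By edgeR none passed an adjusted p under 0.05, where 17 had an unadjusted p under 0.05 (15 higher, 2 lower) and DESeq2 called 12 (10 higher, 2 lower). The groups were separated for 15 genes upward and 2 downward. Over all tested genes, 52.0% were above 0, and 16.7% were higher and 15.5% lower without overlap. An unadjusted p under 0.05 was reached upward by 11.9% and downward by 13.7%, and DESeq2 called 4.69% higher and 8.73% lower. The 16 mitochondrial enzymes among the 23 genes all had values above 0, with log2 fold changes from 0.14 to 0.53 and a median of 0.40. Scaled to the adipocyte marker counts, 14 of the 23 genes and 12 of the 16 enzymes were above 0, and Mmut and Slc25a44 were among those below.

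Dld, the E3 subunit that BCKDH shares with other complexes, was at 276.3, 302.4 and 264.7 CPM in the control mice and at 383.3, 416.5 and 303.9 CPM in the aPU.1KO mice (log2 fold change 0.39 ± 0.13, edgeR adjusted p = 0.134). The groups were just separated. In the valine branch Hibch, the hydrolase that frees 3-hydroxyisobutyrate, was at 148.6, 174.0 and 149.9 CPM against 235.0, 246.5 and 198.9 CPM (0.53 ± 0.11, edgeR adjusted p = 0.0779, DESeq2 adjusted p = 0.00179). Echs1, the enoyl-CoA hydratase of several branches, was at 182.3, 203.2 and 195.4 CPM against 265.1, 349.7 and 221.5 CPM (0.53 ± 0.17, or 0.33 without aPU.1KO mouse 2, edgeR adjusted p = 0.118). The groups of both genes were separated, and neither gene passed the edgeR test. Aldh6a1, which makes propionyl-CoA from valine, was the most counted of these enzymes, at 574.1, 677.0 and 576.8 CPM in the control mice and at 914.7, 929.4 and 729.8 CPM in the aPU.1KO mice (0.49 ± 0.13, edgeR adjusted p = 0.0946). In the steps from propionyl-CoA to succinyl-CoA, Mcee, the methylmalonyl-CoA epimerase, had the lowest edgeR adjusted p of the 23 (0.0724) at 25.9, 28.2 and 26.7 CPM against 37.8, 38.1 and 34.6 CPM. Mmut, the mutase of the last step, overlapped between groups (0.22 ± 0.10, edgeR adjusted p = 0.234).

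The 4 genes below 0 were Bcat1, the cytosolic transaminase, and 3 amino acid carrier genes at the plasma membrane. Bcat1 was at 27.9, 16.2 and 38.2 CPM in the control mice and at 20.6, 8.18 and 23.1 CPM in the aPU.1KO mice (-0.67 ± 0.44, edgeR adjusted p = 0.377). Its groups overlapped, and in each group the lowest value was that of mouse 2, where the macrophage markers were also lowest. Slc43a2, the carrier LAT4, was at 40.2, 19.96 and 39.2 CPM against 17.0, 13.1 and 15.0 CPM (-1.15 ± 0.27, edgeR adjusted p = 0.0808, DESeq2 adjusted p = 0.00163). It too was lowest in mouse 2 of each group. The part of the macrophage signal in both differences was not tested. Slc3a2, the heavy chain of the LAT1 exchanger, was at 139.4, 130.6 and 145.1 CPM against 120.0, 99.9 and 115.5 CPM (-0.31 ± 0.09, edgeR adjusted p = 0.113), and its partner Slc7a5 overlapped at under 10 CPM. Slc43a1, the related carrier LAT3, stood on the other side, at 18.5, 18.1 and 18.2 CPM in the control mice and 39.3, 32.5 and 24.8 CPM in the aPU.1KO mice (0.82 ± 0.16, edgeR adjusted p = 0.0764, DESeq2 adjusted p = 0.000849). Slc43a1 had the highest log2 fold change of the 23, smaller in size than that of Slc43a2, and its aPU.1KO mice ranked as for Ppm1k in that mouse 1 was highest. Slc25a44, the mitochondrial carrier of branched-chain amino acids, was at 57.9, 60.3 and 59.9 CPM against 65.7, 78.1 and 71.5 CPM (0.27 ± 0.08, edgeR adjusted p = 0.109). Klf15, a transcription factor known to control genes of this pathway, was at 53.2, 61.9 and 53.4 CPM against 82.0, 72.7 and 71.8 CPM (0.43 ± 0.09, edgeR adjusted p = 0.0783).

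**Figure D4:**
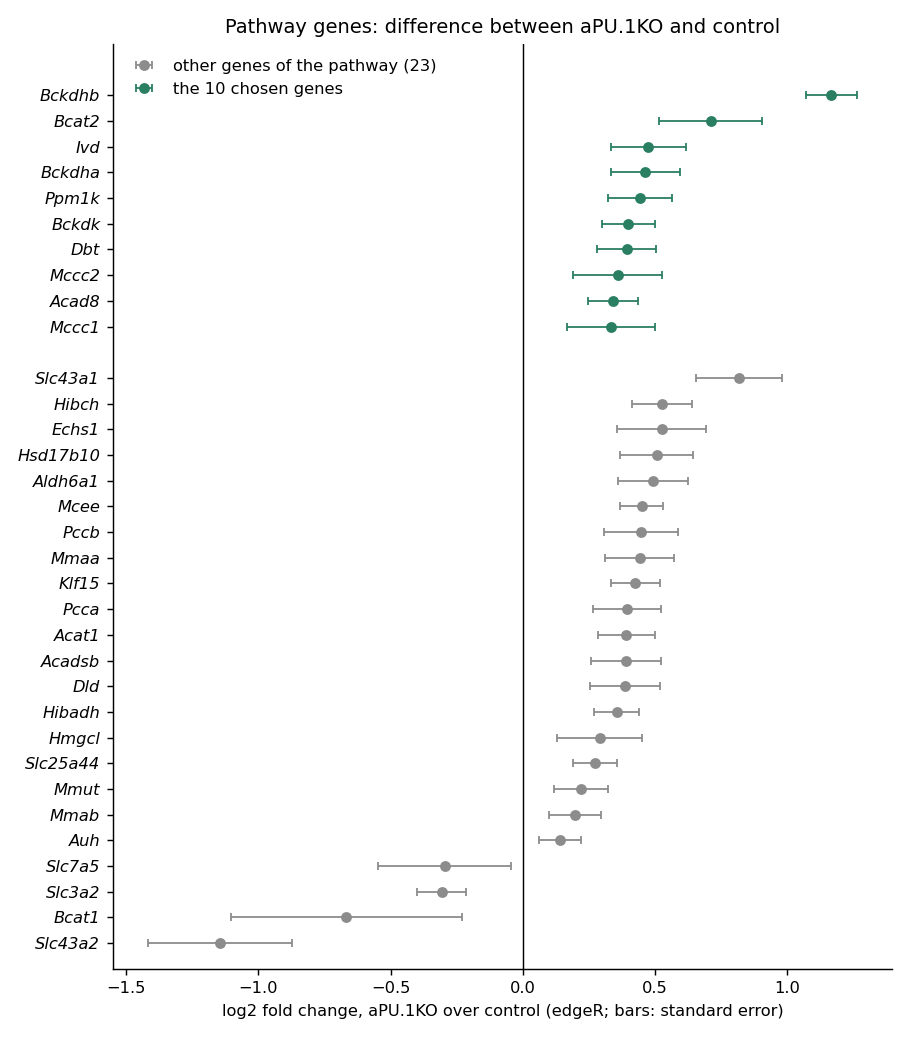
Log2 fold change of aPU.1KO over control (edgeR, bars are standard errors) for the 10 chosen genes in green and the 23 further pathway genes in grey. Bckdhb (1.17) lies apart from the other chosen genes (0.34 to 0.71), the mitochondrial enzymes cluster between 0.14 and 0.53, and Slc43a2 (-1.15), Bcat1, Slc3a2 and Slc7a5 lie below 0.

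Related mitochondrial lists gave the setting. Over all tested genes, 52.0% were above 0, and edgeR called 0.0575% higher and 0.18% lower. An unadjusted p under 0.05 was reached upward by 11.9% and downward by 13.7%, and DESeq2 called 4.69% higher and 8.73% lower. Of 12 genes of the pyruvate and 2-oxoglutarate dehydrogenase complexes and their regulators, 10 were above 0 (median log2 fold change 0.33). None passed by edgeR, 7 had an unadjusted p under 0.05 and DESeq2 called 3. The pyruvate dehydrogenase subunits were at 0.66 ± 0.20 for Pdha1, 0.63 ± 0.17 for Pdhb, 0.53 ± 0.17 for Pdhx and 0.32 ± 0.13 for Dlat, with edgeR adjusted p from 0.0941 to 0.183. The 2-oxoglutarate dehydrogenase subunits were at 0.09 ± 0.08 for Ogdh and 0.25 ± 0.11 for Dlst, and both overlapped between groups. Pdk2, a pyruvate dehydrogenase kinase, was at 0.59 ± 0.11 (edgeR adjusted p = 0.0724), and its relative Pdk4 at -0.46 ± 0.43 overlapped. Pdp1 was at -0.27 ± 0.13, lower without overlap (edgeR adjusted p = 0.245). Of 17 TCA cycle genes all were above 0 (median 0.36, 0 called by edgeR, 11 with an unadjusted p under 0.05, 2 by DESeq2), led by Sdhb at 0.66 ± 0.17. Idh3b (0.47 ± 0.18) and Suclg2 (0.43 ± 0.10) came next, and Sucla2 (0.13 ± 0.10), Ogdh and Idh2 (0.08 ± 0.08) were lowest. Of 18 genes of fatty acid β-oxidation, 15 were above 0 with a median of 0.15, none passed by edgeR, 7 had an unadjusted p under 0.05 (6 higher, 1 lower) and DESeq2 called 3. Eci1 (0.52 ± 0.12, edgeR adjusted p = 0.0786), Acadvl (0.36 ± 0.15) and Etfa (0.36 ± 0.11) had the largest values. Those below 0 were Cpt1b (-0.59 ± 0.31) and Slc25a20 (-0.04 ± 0.07), which overlapped between groups, and Cpt1a. Cpt1a, the entry enzyme of β-oxidation, was lower in all aPU.1KO mice (81.9, 85.3 and 115.6 CPM against 139.6, 124.5 and 141.6 CPM, -0.52 ± 0.14, edgeR adjusted p = 0.099). Without aPU.1KO mouse 2 the TCA cycle median was 0.20, and without control mouse 2 the β-oxidation median was 0.094. Scaled to the adipocyte marker counts, the TCA cycle, sister complex and β-oxidation medians were 0.03, 0.01 and -0.19, with 9 of 17, 6 of 12 and 4 of 18 genes above 0. Whether the lists differ from each other was not tested.

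The position of Bckdhb was examined after its value was seen. Besides Bckdhb, edgeR called 7 genes higher, and 2 of these 7 were on chromosome 9 (5.63% of all tested genes are). They were Gsta4, a glutathione S-transferase gene that starts 5.74 Mb before Bckdhb, and the zinc finger gene Zfp949, which starts 4.62 Mb after it. Gsta4 was at 10.9, 15.1 and 10.1 CPM in the control mice and at 64.2, 93.6 and 62.3 CPM in the aPU.1KO mice (2.61 ± 0.22, edgeR adjusted p = 0.0174). Zfp949 was at 8.99, 8.54 and 9.60 CPM against 18.8, 21.8 and 17.9 CPM (1.11 ± 0.12, edgeR adjusted p = 0.0324). The groups of both genes were far apart, and the spread within a group was wider for Gsta4 than for Zfp949 or Bckdhb. The edgeR call of Gsta4 was lost without control mouse 1, control mouse 3, aPU.1KO mouse 1 or aPU.1KO mouse 3, and that of Zfp949 without any single mouse but control mouse 2, with log2 fold changes from 2.40 to 2.79 and from 1.02 to 1.17. Of 69 other tested genes within 10 Mb, these were the 2 called higher, none was called lower, 31 were above 0 and the median was -0.03. A further 3 of the 7 genes, Gm7049, Morf4l1-ps1 and Gm8210, are processed pseudogenes on other chromosomes whose closest coding genes, Me1, Morf4l1 and Rpl29, lie 2.66, 6.17 and 22.5 Mb after the start of Bckdhb on chromosome 9 (98.4%, 99.8% and 99.4% identical over 1716, 969 and 483 bases). The coding genes themselves were not called, with log2 fold changes of 0.23 for Me1, 0.05 for Morf4l1 and -0.51 for Rpl29 (edgeR adjusted p = 0.532, 0.675 and 0.105). The counts of the pseudogenes cannot be told from those of their coding copies with certainty, and each pseudogene was below 1 CPM in every control mouse and at 9.91 to 27.7 CPM in the aPU.1KO mice. Each of these calls was lost in 1 or more of the fits that left out a mouse. The rest of the 7 were Tmem179 on chromosome 12 (1.39 ± 0.18) and Eif4a2 on chromosome 16 (0.97 ± 0.10, edgeR adjusted p = 0.0324). Eif4a2 (chr16:23107444-23114136) and Morf4l1-ps1 (chr16:24529394-24530362) lie on the chromosome of Adipoq (chr16:23146536-23158028). Adipoq is the adiponectin gene, whose promoter and enhancer drive Cre in the aPU.1KO mice. Bckdhb itself had no transcript of another gene at 95% identity or more over 400 bases. The genotype of these regions of chromosomes 9 and 16 in the mice was not analysed here. Whether the differences of the 7 genes relate to that of Bckdhb was not tested.

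**Figure D5:**
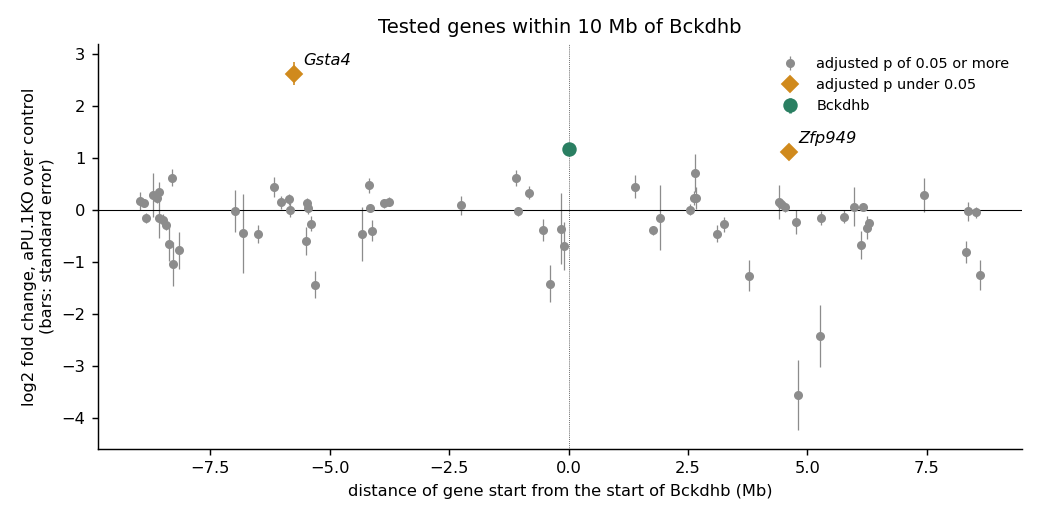
Log2 fold change (aPU.1KO over control, bars are standard errors) of the tested genes within 10 Mb of Bckdhb against the distance of their start from that of Bckdhb in Mb. Bckdhb is in green (1.17), Gsta4 (2.61) and Zfp949 (1.11) are the other genes with an adjusted p under 0.05, and the remaining genes (grey) lie on both sides of 0.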

How the data were processed

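RNA of the adipocyte fraction of 3 control and 3 aPU.1KO mice was sequenced, and mice are numbered within a group in the order of their accession. The authors deposited estimated counts per gene: Salmon, run with validateMappings, gave counts per transcript, which were added up by gene. The deposited values are whole numbers and were used as they are. The build, GRCm38, and the tools Salmon and FastQC are from the submitters' processing notes, and the Salmon version, annotation and strand setting are not given in the sources used here. Of 35122 identifiers, 35102 were matched to GENCODE M21, and the unmatched ones hold 0.0019% of counts.

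Control and aPU.1KO mice were compared by edgeR (version 4.0.16, R 4.3.3) with filterByExpr, TMM scaling, glmQLFit at its defaults and glmQLFTest, and p-values were adjusted over all genes by Benjamini-Hochberg. The p-values measure the spread between these mice. An exact permutation test of 3 against 3 mice cannot go below 0.1. Standard errors come from the coefficient and F statistic. No pair of libraries within a group was a duplicate (chi-square per degree of freedom 19.0 or more). The code was tested on simulated data. Start windows are from RefSeq (GRCm38.p6), similar transcripts from BLAST 2.17.0, and figures from matplotlib 3.10.9 in Python 3.11.15.

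The members and lists were chosen with earlier results of these data known. Named were all 10 members, Spi1 and, of the other lists, genes with an adjusted p under 0.05, the 3 largest and 3 smallest log2 fold changes and the E1, E2 and E3 subunits. Pathway genes beyond these, genes near Bckdhb and genes called higher were named after their values were seen. Alternatives were other scaling factors (RLE, upper quartile, adipocyte markers), count filters (at least 10 in every library, none), DESeq2 1.42.0, limma-voom (limma 3.58.1), other dispersion settings, control mouse 1 thinned to the depth of the others, and each mouse left out. The adipocyte scaling of calls and of the related lists was added after seeing the data. No paired analysis was possible because the labels give no shared replicate numbers and do not say which of the control mice, described as littermates, belongs to which aPU.1KO mouse.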

Additional observations from a re-analysis of the deposited data

How the results depend on the processing

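Over all genes, edgeR called 33 genes. The count was 5 with at least 10 counts in every library, 146 with no filter, 1869 with DESeq2 and 2560 after scaling to the adipocyte markers, and it ran from 0 (without control mouse 1) to 1193 (without control mouse 2) when single mice were left out. Among the 23 further pathway genes the calls went from 0 to 12 with DESeq2, to 2 (both lower) with adipocyte scaling, and ran from 0 to 4 without single mice, with 4 (3 higher, 1 lower) without control mouse 2. The median log2 fold change of the 10 genes was 0.40 to 0.42 under the other scalings, filters and tests and 0.34 to 0.50 without single mice, but 0.095 with adipocyte scaling, which also moved the median of the sister complexes to 0.007, of the TCA cycle to 0.027 and of β-oxidation to -0.186. That scaling lowered the median of all genes to -0.31, as the adipocyte markers took a larger share of the aPU.1KO libraries. Among the genes for which each alternative was run, the same scaling turned Ogdh (-0.238), Idh2 (-0.242), Sucla2 (-0.197), Dlat (-0.013), Dlst (-0.079), Mmut (-0.101), Slc25a44 (-0.054) and, of the 10 genes, Mccc1 (-0.005). No other setting turned a gene for which the alternatives were run. In the whole lists the genes above 0 went from 19 to 14 of the 23 further pathway genes, from 10 to 6 of 12 in the sister complexes, from 17 to 9 of 17 in the TCA cycle and from 15 to 4 of 18 in β-oxidation. Without aPU.1KO mouse 2, Bcat1 went to -0.33, Pdhx to 0.34, Dlat to 0.21 and Dlst to 0.14, and without control mouse 3 Bcat1 was at -0.36. Pdk4 ran from -0.94 to -0.18 without single mice. With at least 10 counts in every library Zfp949 was no longer called. Bckdhb stayed between 1.15 and 1.17 under the other scalings, filters and tests and was 0.84 with adipocyte scaling. The ratio between the highest and lowest control level was 16.5 with mean coding length and 22.3 with either the union of exons or the longest coding transcript. The cause of the other shifts was not tested. The 10 genes had at least 404 counts in every library.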
